A study of Mus musculus with 10 samples.

Results

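The 10 genes studied here control the making of mitochondria, and were followed in mouse primary hepatocytes treated with free fatty acids (FFAs) and Neurotropin (NTP). They are the PGC-1 coactivators Ppargc1a, Ppargc1b and Pprc1, the transcription factors Nrf1, Gabpa and Esrra, and the mitochondrial DNA factors Tfam, Polrmt, Tfb1m and Tfb2m. They were chosen by name, and all 10 were found among the 18055 gene IDs of the deposited tables and passed the filter on low counts. The cells came from livers of wild-type mice of the C57BL/6 strain, perfused with collagenase, and the age of the mice is not given in the sources used here. RNA sequencing covered 5 groups of 2 libraries each. Vehicle cells received neither agent, PA cells 200 μM palmitate and LA cells 12 μM linoleate for 24 h, and PA+NTP and LA+NTP cells the same FFA after 1 h with 0.4 NU/mL NTP. No group received NTP without an FFA, so an effect of NTP can be read only against cells with the same FFA. The study asked which genes changed by FFAs are brought back by NTP, and PGC-1β, the product of Ppargc1b, is the regulator it followed further.

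PGC-1 coactivators do not bind DNA themselves. They dock on transcription factors such as NRF1, NRF2 (whose DNA-binding subunit is GABPA) and ERRα (encoded by Esrra), which switch on nuclear genes of the respiratory chain and of mitochondrial DNA upkeep. Among these targets are TFAM, which packages mitochondrial DNA and helps to start its transcription, the RNA polymerase POLRMT, and TFB2M, which opens the promoter for it, while TFB1M methylates ribosomal RNA in the organelle. In liver, PGC-1α is known from the fasting response and PGC-1β from lipid synthesis and export and from mitochondrial gene expression. Nrf1 and NRF2 here are the nuclear respiratory factors, and not the stress-response factors Nfe2l1 and Nfe2l2, which share those short names.

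The 10 regulators did not move as one. Ppargc1b, Esrra, Polrmt and Pprc1 were lower with an FFA alone and higher with NTP on top of it, Gabpa, Tfam and Tfb2m lay the other way but under the fold threshold, and Tfb1m was highest in PA and lowest in LA+NTP. Gabpa, Tfam, Tfb2m, Tfb1m, Ppargc1a and Nrf1 were not called in any comparison over all 10 libraries. A change counts as called where edgeR's quasi-likelihood test gave an adjusted p (Benjamini-Hochberg) under 0.05 and the fold change reached 1.5. With PA, Esrra fell, so that 1 of 10 members was called lower, against 8.92% of the 14097 genes tested. With LA, Ppargc1b, Esrra and Polrmt fell, or 3 of 10 members, against 7.11% of all genes. With PA+NTP against PA, Ppargc1b, Pprc1 and Esrra rose, or 3 of 10 members, against 8.74% of all genes. With LA+NTP against LA, Ppargc1b, Pprc1, Esrra and Polrmt rose, or 4 of 10 members, against 11.7% of all genes. Only Ppargc1b kept its calls, with LA and with NTP under both FFAs, once a trend on GC content described below had been taken out of the libraries. In that fit Tfam, Pprc1 with NTP and Ppargc1a with PA+NTP also had an adjusted p under 0.05, and missed only the fold threshold.

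The depth was between 13142588 and 60046937 expected counts per library, a range of 4.57 times, and both the smallest (PA replicate 1) and the largest (LA+NTP replicate 2) total belong to groups used below. Nothing in the labels says that the replicates of a group came from separate cultures or animals, so p-values measure only the spread between these libraries, which may be technical. With 2 libraries against 2, an exact permutation test of a single gene cannot fall below p = 0.333, and the calls rest on the spread shared over genes and groups. Libraries also differed with the GC content of the transcripts. Across 13409 genes, a gene's deviation from its own mean followed GC content with a Spearman's rho from -0.591 to -0.490 in the 4 libraries with an FFA alone and from 0.357 to 0.590 in the other 6, as a description over genes, which are not independent. The trend thus ran with the treatment groups, and a bias of the libraries and a response to treatment cannot be told apart in it. All 7 hepatocyte markers, mostly Alb, were listed in every library and summed to an FPKM (fragments scaled for transcript length and library size) of 2316 to 3382 with an FFA alone and 2797 to 4185 in the other libraries. The 6 macrophage markers, most of whose signal was Cd68, summed to 126 to 238 with an FFA alone and 182 to 296 in the others. The 5 endothelial markers summed to 27.6 to 32.0 and 29.8 to 40.2, the 6 stellate cell or fibroblast markers to 18.9 to 22.6 and 19.8 to 22.9, and the 5 cholangiocyte markers, mostly Spp1, to 407 to 678 and 569 to 704. The part of other cell types in the results was not tested. Lymphocyte markers were at or near 0, with a sum of at most 0.22 and Ms4a1 listed in no library. In RNA from whole cultures, fewer cells of a type and less RNA per cell cannot be told apart.

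The positions of the members are gene spans of RefSeq on GRCm38.p6, the assembly of the mm10 build that the submitters' processing notes name. Ppargc1a (gene ID 19017) lies on the minus strand at chr5:51454249-52115853. Esrra (26379, minus strand, chr19:6910977-6922048) and Pprc1 (226169, plus strand, chr19:46056526-46072909) share chromosome 19, and Tfam (21780, chr10:71225468-71238328) and Polrmt (216151, chr10:79736125-79746604) share the minus strand of chromosome 10. Nrf1 (18181) is at chr6:30047985-30153458 and Gabpa (14390) at chr16:84834891-84863783, both on the plus strand, and Tfb1m (224481) at chr17:3519250-3557796 and Tfb2m (15278) at chr1:179528052-179546305, both on the minus strand. Exons of Pprc1, Gabpa, Esrra and Tfb1m overlap exons of Ldb1, Atp5j, Trmt112 and Tiam2 on the other strand, and whether the counting used strand is not given in the sources used here. Of the 31-base sequences of Tfb2m, 35.9% also occur in other transcripts, mainly Gm1818, so that its counts are uncertain, and 6.68% of those of Tfb1m and 2.31% of those of Esrra do so.

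Promoters are shown for 5 members that lay in opposite directions and hold a letter match to a factor of the same pathway. Each run is the 250 bases before the start site set for that window, 5′ to 3′ on the gene's strand, from RefSeq on GRCm38.p6. The windows are at chr19:6921809-6922058 for Esrra, chr10:79746582-79746831 for Polrmt, chr16:84834874-84835123 for Gabpa, chr10:71238045-71238294 for Tfam and chr1:179546277-179546526 for Tfb2m. These start sites lie inside the gene spans given above. The Tfam window thus lies wholly within its gene span, and the Esrra and Gabpa windows mostly do. Capitals mark GCATGCGC, the core of the NRF1 site, and CGGAAG, the core of the GABP site, each searched on both strands.
Esrra: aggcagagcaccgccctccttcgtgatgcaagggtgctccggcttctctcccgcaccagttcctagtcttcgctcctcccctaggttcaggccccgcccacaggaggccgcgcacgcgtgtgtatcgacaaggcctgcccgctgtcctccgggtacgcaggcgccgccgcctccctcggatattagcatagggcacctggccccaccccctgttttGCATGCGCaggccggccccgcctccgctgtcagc
Polrmt: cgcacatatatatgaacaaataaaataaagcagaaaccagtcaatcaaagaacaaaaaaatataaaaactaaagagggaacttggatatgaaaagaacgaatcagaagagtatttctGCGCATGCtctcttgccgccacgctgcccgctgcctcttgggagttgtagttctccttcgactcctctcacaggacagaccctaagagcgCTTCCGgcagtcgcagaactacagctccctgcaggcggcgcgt
Gabpa: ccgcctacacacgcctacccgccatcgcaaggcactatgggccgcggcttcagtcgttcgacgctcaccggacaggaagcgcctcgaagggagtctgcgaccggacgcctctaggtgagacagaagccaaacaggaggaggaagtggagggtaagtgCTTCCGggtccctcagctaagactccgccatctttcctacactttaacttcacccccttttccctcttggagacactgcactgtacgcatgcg
Tfam: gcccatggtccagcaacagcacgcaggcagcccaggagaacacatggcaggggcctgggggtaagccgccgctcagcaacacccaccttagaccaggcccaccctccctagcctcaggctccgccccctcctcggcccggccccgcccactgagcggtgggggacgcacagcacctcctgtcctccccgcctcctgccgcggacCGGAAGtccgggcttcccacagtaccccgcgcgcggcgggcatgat
Tfb2m: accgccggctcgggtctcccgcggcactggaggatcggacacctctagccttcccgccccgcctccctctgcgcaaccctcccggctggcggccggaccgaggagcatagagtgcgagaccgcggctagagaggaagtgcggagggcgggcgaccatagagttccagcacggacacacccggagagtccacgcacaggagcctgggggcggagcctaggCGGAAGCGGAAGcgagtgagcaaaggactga
The NRF1 letters were found in the Esrra window, 34 bases before its start site, and as their reverse complement in that of Polrmt, 133 bases before its start site. They occur in 2.26% of the 32851 promoter windows of this length. The GABP letters were found in Tfam, in Tfb2m as a pair of adjacent copies, and as their reverse complement in Polrmt and Gabpa, and they occur in 13.6% of all windows. The matches in Esrra, Tfam and Gabpa lie inside the gene spans given above, and not upstream of them. Of the pair in Tfb2m, the copy nearer to the start site also lies inside the gene span, and the other crosses its end. The ERR letters AAGGTCA, found in 4.08% of all windows, were in none of the 10 member windows, which cover 9 members with 2 windows for Nrf1. Esrra and Polrmt, which were lower with LA and higher with LA+NTP, hold the NRF1 letters in their windows. Pprc1, which lay the same way, held none of the letters searched, and Ppargc1b is the member without a window. The GABP letters are in the window of Polrmt, as well as in those of Gabpa, Tfam and Tfb2m, which lay the other way under the fold threshold. A match is a description of letters and not a site of binding, and the motifs were chosen after the sequences had been seen.

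Among the coactivators, Pprc1, which encodes the PGC-1-related coactivator PRC known from growing cells, was by far the highest. Its FPKM was 16.4 and 17.2 in Vehicle, 12.5 and 13.3 in PA, 11.3 and 12.1 in LA, 19.5 and 21.1 in PA+NTP, and 18.3 and 19.3 in LA+NTP. Every FFA library lay below the Vehicle libraries, and every NTP library above them. Its share of the summed FPKM of the 3 PGC-1 genes was between 85.4% and 89.2% in all libraries. Against PA, PA+NTP gave a log2 fold change of 0.59 (standard error 0.07, adjusted p = 1.44e-05), or 1.51-fold, just past the fold threshold. It was 1.56-fold higher in LA+NTP than in LA, with a log2 fold change of 0.64 (standard error 0.07, adjusted p = 3.72e-06). The call under PA was lost without PA replicate 1 (log2 fold change 0.55), PA+NTP replicate 2 (0.50) or LA replicate 2 (0.58). Removal of the GC trend ended both calls, with 0.31 and 0.28 left (adjusted p = 0.00557 and 0.0103). With the FFAs alone Pprc1 did not reach the fold threshold, at -0.34 with PA (adjusted p = 0.00129) and -0.47 with LA (adjusted p = 0.000117).

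Ppargc1b (gene ID 170826, minus strand, chr18:61291445-61400756) had the lowest level of the 10 genes in Vehicle and the largest changes with LA and with NTP. Its FPKM was 1.27 and 1.17 in Vehicle, 0.72 and 0.88 in PA, 0.49 and 0.65 in LA, 1.71 and 1.66 in PA+NTP, and 1.22 and 1.37 in LA+NTP. The PA and LA libraries lay below all others, the PA+NTP libraries above all others, and the LA+NTP libraries overlapped Vehicle. These values rest on 35 to 304 expected counts per library, the lowest in PA replicate 1, the library of least depth. LA lowered Ppargc1b 2.09-fold, with a log2 fold change of -1.06 (standard error 0.21, adjusted p = 0.000997 in edgeR's quasi-likelihood test). For PA the log2 fold change was -0.54 (standard error 0.20, adjusted p = 0.0432), or 1.46-fold, which missed the fold threshold. NTP raised it 1.98-fold under PA (log2 fold change 0.99, standard error 0.20, adjusted p = 0.00094) and 2.24-fold under LA (1.17, standard error 0.20, adjusted p = 0.000212). These calls held without each of the 10 libraries in turn, with log2 fold changes of -1.27 to -0.85 for LA, 0.88 to 1.15 for PA+NTP and 0.95 to 1.37 for LA+NTP. With the GC trend removed they became -0.68 (adjusted p = 0.0367), 0.62 (adjusted p = 0.0306) and 0.67 (adjusted p = 0.0213) and were still called, while the value with PA became -0.20 (adjusted p = 0.497). The value with PA+NTP was then just past the fold threshold. Single libraries were not left out of the fit with the GC trend removed, so how far these calls rest on 1 library was not tested.

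Ppargc1a, the gene of PGC-1α, was about as abundant as Ppargc1b in Vehicle, and its FPKM was not lower with the FFAs. Its FPKM was 1.39 and 1.22 in Vehicle, 1.35 and 1.38 in PA, 1.44 and 1.32 in LA, 1.42 and 1.58 in PA+NTP, and 1.00 and 1.17 in LA+NTP. The PA and LA libraries overlapped Vehicle, and the LA+NTP libraries were the lowest. The approximate 95% interval of its log2 fold change was -0.17 to 0.39 with PA and -0.14 to 0.41 with LA, so that a decrease as large as that of Ppargc1b with LA lay outside both. LA+NTP stood at -0.38 against LA (standard error 0.13, adjusted p = 0.0292), under the fold threshold, and PA+NTP at 0.08 against PA (standard error 0.14, adjusted p = 0.677). Its transcript is AT-rich, and removal of the GC trend shifted these values to 0.07 for LA+NTP and 0.44 for PA+NTP (adjusted p = 0.737 and 0.0268), neither of them called. With the FFAs it turned the sign, to -0.24 with PA and -0.23 with LA (adjusted p = 0.223 and 0.282), so that Ppargc1a then lay on the same side as Ppargc1b in all 4 comparisons.

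**Figure D1:**
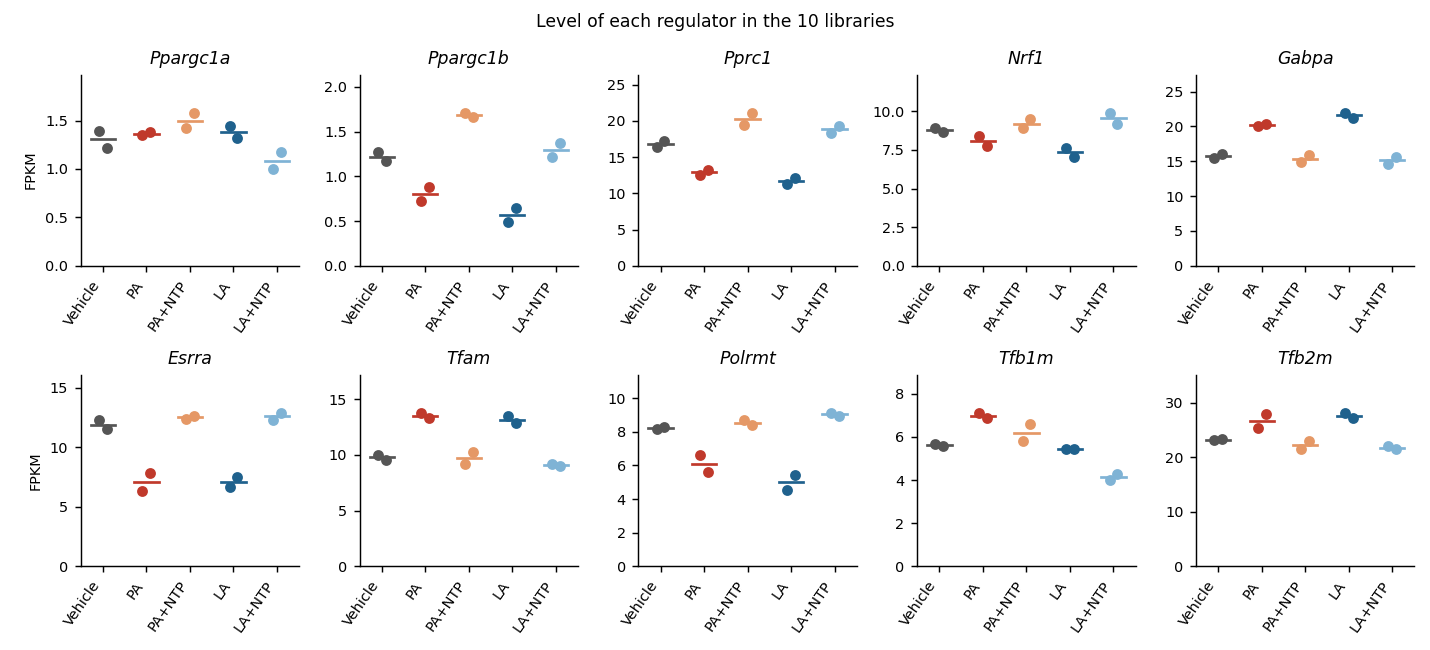
FPKM of each of the 10 regulators (vertical axes, each starting at 0) in the 10 libraries, by group. Points are libraries and lines are means of 2. Ppargc1b, Pprc1, Esrra and Polrmt are lower in PA and LA than in the other groups, Gabpa, Tfam and Tfb2m are higher there, and Ppargc1a lies between 1.00 and 1.58 throughout.

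The ratio of Ppargc1b to Ppargc1a within a library, which needs no scaling between libraries, separated the groups. It was 0.914 and 0.959 in Vehicle, 0.533 and 0.638 in PA, and 0.340 and 0.492 in LA. With NTP it was 1.20 and 1.05 under PA and 1.22 and 1.17 under LA. All 4 libraries with NTP lay above Vehicle and all 4 with an FFA alone below it. The ratio of Tfam to Polrmt, taken from 2 factors of the same transcription machinery, was 1.22 and 1.16 in Vehicle, 2.09 and 2.37 in PA, and 2.98 and 2.36 in LA. It was 1.06 and 1.22 in PA+NTP and 1.01 and 1.00 in LA+NTP. Both ratios set a GC-rich against a GC-poor transcript, and the GC trend of the libraries is not removed from them.

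**Figure D2:**
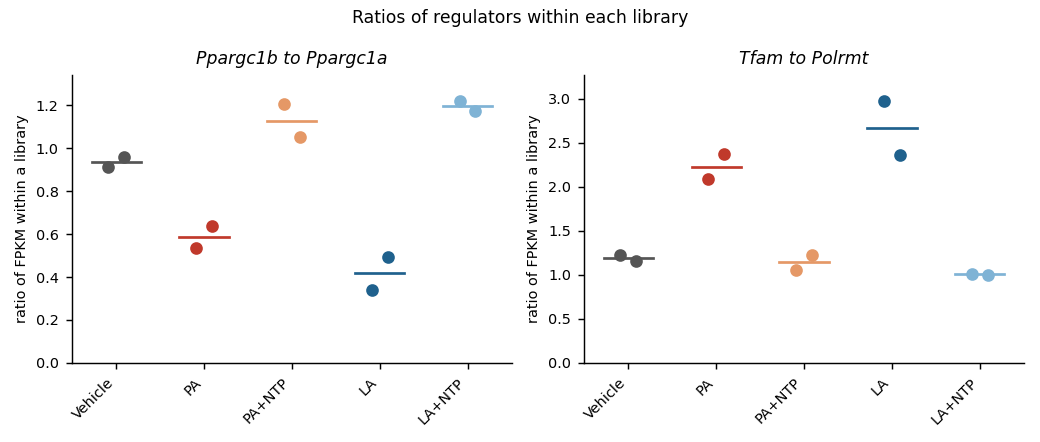
Ratio of the FPKM of Ppargc1b to that of Ppargc1a (left) and of Tfam to that of Polrmt (right) within each library, by group. Points are libraries and lines are means of 2. PA and LA have the lowest values on the left, from 0.340 to 0.638, and the highest on the right, from 2.09 to 2.98.

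Of the DNA-binding factors, Esrra changed most. It encodes ERRα, an orphan nuclear receptor that works with PGC-1 coactivators on genes of oxidative metabolism. Its FPKM was 12.3 and 11.5 in Vehicle, 6.34 and 7.86 in PA, 6.67 and 7.46 in LA, 12.4 and 12.6 in PA+NTP, and 12.3 and 12.9 in LA+NTP. The 4 libraries with an FFA alone lay far below the other 6, among which those with NTP stood just above Vehicle. Esrra fell 1.60-fold with PA (log2 fold change -0.68, standard error 0.10, adjusted p = 0.000113). The fall with LA was 1.63-fold (-0.71, standard error 0.10, adjusted p = 8.84e-05). With NTP it rose 1.66-fold under PA (0.73, standard error 0.10, adjusted p = 5.12e-05) and 1.74-fold under LA (0.80, standard error 0.10, adjusted p = 1.15e-05). The call with PA was lost without PA replicate 1 (log2 fold change -0.56). Esrra has the transcript of highest GC content among the members, and with the GC trend removed all 4 calls were lost, at -0.18, -0.15, 0.20 and 0.09 (adjusted p = 0.186, 0.324, 0.156 and 0.544).

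Gabpa, the DNA-binding subunit of NRF2, lay in the opposite direction. Its FPKM was 15.5 and 16.1 in Vehicle, 20.1 and 20.3 in PA, 22.0 and 21.2 in LA, 14.9 and 15.9 in PA+NTP, and 14.6 and 15.7 in LA+NTP. The FFA libraries lay above all others, and those with NTP overlapped Vehicle. Its log2 fold change was 0.39 with PA (adjusted p = 0.000274) and 0.50 with LA (adjusted p = 4.75e-05), and with NTP -0.45 under PA (adjusted p = 7.36e-05) and -0.55 under LA (adjusted p = 7.71e-06). All of these stayed under the fold threshold of 1.5. Removal of the GC trend left 0.03, 0.12, -0.08 and -0.09, with adjusted p of 0.722, 0.197, 0.356 and 0.314.

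Nrf1 varied least of the transcription factors. Its FPKM was 8.93 and 8.67 in Vehicle, 8.40 and 7.78 in PA, 7.64 and 7.05 in LA, 8.90 and 9.48 in PA+NTP, and 9.90 and 9.19 in LA+NTP. The libraries with an FFA alone were lowest on this scale. On the counts, which are not divided by length, its log2 fold change was -0.05 with PA (adjusted p = 0.633) and -0.11 with LA (adjusted p = 0.302), and with NTP 0.09 under PA (adjusted p = 0.4) and 0.22 under LA (adjusted p = 0.0256). None was called. Part of the FPKM difference moved with transcript length. The length that RSEM assigned to Nrf1, which follows the mix of its 6 transcripts, was 3005 to 3305 bases with an FFA alone and 2922 to 3015 bases in the other libraries.

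The mitochondrial DNA factors split in the same way. Polrmt, the RNA polymerase of mitochondria, had an FPKM of 8.17 and 8.27 in Vehicle, 6.60 and 5.63 in PA, 4.53 and 5.45 in LA, 8.68 and 8.42 in PA+NTP, and 9.12 and 8.96 in LA+NTP. The FFA libraries lay below Vehicle and the NTP libraries above it. It fell 1.60-fold with LA (log2 fold change -0.68, standard error 0.10, adjusted p = 9.76e-05) and rose 1.77-fold with LA+NTP against LA (0.82, standard error 0.10, adjusted p = 7.45e-06). Under PA the values were -0.41 against Vehicle (adjusted p = 0.00356) and 0.45 with NTP (adjusted p = 0.00187), short of the fold threshold. Without LA replicate 1 the call with LA was lost (log2 fold change -0.54). The calls were also lost with the GC trend removed, at -0.16 with LA and 0.15 with LA+NTP (adjusted p = 0.328 and 0.295), and the values under PA changed sign, to 0.05 and -0.06.

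Tfam was higher with an FFA alone. Its FPKM was 9.97 and 9.58 in Vehicle, 13.8 and 13.3 in PA, 13.5 and 12.9 in LA, 9.20 and 10.3 in PA+NTP, and 9.19 and 8.97 in LA+NTP. All 4 FFA libraries lay above all others. Against Vehicle the log2 fold change was 0.50 in PA (standard error 0.08, adjusted p = 0.000142). In LA it was 0.48 (standard error 0.08, adjusted p = 0.000235), and with NTP -0.53 under PA (adjusted p = 8e-05) and -0.58 under LA (adjusted p = 1.99e-05). These are folds of 1.42, 1.39, 1.44 and 1.49, all just under the threshold. Unlike Gabpa, Tfam kept an adjusted p under 0.05 in all 4 comparisons with the GC trend removed, at 0.29, 0.25, -0.30 and -0.29 (adjusted p = 0.0103, 0.0358, 0.00891 and 0.00935).

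The methyltransferase relatives Tfb1m and Tfb2m differed from each other. Tfb2m had an FPKM of 23.1 and 23.4 in Vehicle, 25.3 and 27.9 in PA, 28.1 and 27.1 in LA, 21.4 and 23.0 in PA+NTP, and 22.0 and 21.4 in LA+NTP, the highest level of the 10 genes. Its log2 fold changes of 0.24 and 0.29 for PA and LA (adjusted p = 0.015 and 0.00414), and of -0.32 and -0.39 for NTP under each (adjusted p = 0.00189 and 0.000315), stayed under the fold threshold, and all changed sign with the GC trend removed, to -0.078, -0.038, 0.0085 and 0.0275. Tfb1m had an FPKM of 5.68 and 5.57 in Vehicle, 7.11 and 6.86 in PA, 5.44 and 5.45 in LA, 5.81 and 6.58 in PA+NTP, and 3.98 and 4.26 in LA+NTP. It was highest in PA and lowest in LA+NTP, while LA lay next to Vehicle. Its log2 fold change was 0.34 with PA (adjusted p = 0.0558), -0.0006 with LA (adjusted p = 0.997), -0.22 with PA+NTP (adjusted p = 0.191) and -0.44 with LA+NTP (adjusted p = 0.0126), and none was called.

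In Vehicle the members ranked, by mean FPKM, as Tfb2m (23.2), Pprc1 (16.8), Gabpa (15.8), Esrra (11.9), Tfam (9.78), Nrf1 (8.80), Polrmt (8.22), Tfb1m (5.63), Ppargc1a (1.31) and Ppargc1b (1.22). Of neighbors in this order, only Ppargc1a and Ppargc1b had overlapping replicates. In PA the order changed. Gabpa stood above Pprc1, with means of 20.2 and 12.9, and Tfam above Esrra, with 13.5 and 7.10, both the reverse of their order in Vehicle. Over all 10 libraries, the 4 with an FFA alone lay below the other 6 in 5 members (Ppargc1b, Pprc1, Nrf1, Esrra and Polrmt), which was seen in 21.7% of all genes tested. They lay above the other 6 in 3 members (Gabpa, Tfam and Tfb2m), seen in 16.8% of all genes. For Ppargc1a and Tfb1m the sets of libraries overlapped.

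**Figure D3:**
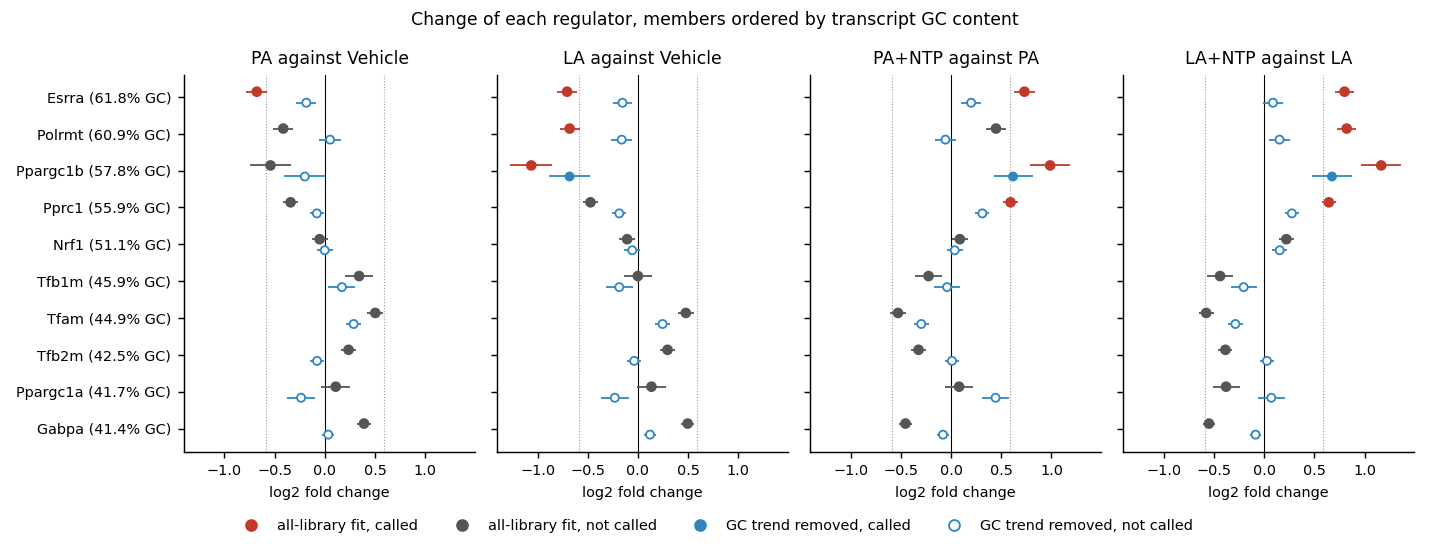
Log2 fold change (horizontal axes) of each regulator in 4 comparisons, ordered from high to low transcript GC content, with standard errors as bars. Red and grey points are from the fit over all libraries, called and not called. Blue points below them are with the GC trend removed, filled where called, and dotted lines mark a fold of 1.5. Filled blue points are seen for Ppargc1b alone, at -0.68, 0.62 and 0.67.

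Taken over the list, no member was called higher with either FFA and none lower with NTP by edgeR or by DESeq2, where 6% and 3.53% of all genes were called higher with PA and LA, and 5.11% and 7.57% lower with PA+NTP and LA+NTP by edgeR. DESeq2 called 5.74%, 3.23%, 4.9% and 7.33% of all genes in those directions. Leaving out single libraries added calls for Tfam and Gabpa. Tfam was called lower with PA+NTP without PA+NTP replicate 2 (-0.64), and lower with LA+NTP without PA+NTP replicate 1 (-0.60), PA+NTP replicate 2 (-0.59), LA replicate 2 (-0.62) or LA+NTP replicate 1 (-0.59). Gabpa was called lower with LA+NTP without LA+NTP replicate 2 (-0.61). At an unadjusted p under 0.05, 4 members were higher and 4 lower with PA, or 8 of 10, against 52% of all genes with such a p in either direction. With LA 3 were higher and 4 lower (7 of 10, against 48.7%), with PA+NTP 4 higher and 3 lower (7 of 10, against 51.2%), and with LA+NTP 5 higher and 5 lower (10 of 10, against 56.8%). For the 10 members the median log2 fold change was 0.03 (PA), -0.05 (LA), 0.08 (PA+NTP) and -0.08 (LA+NTP), beside medians of -0.01, -0.01, 0.01 and 0.01 over all genes. The comparisons of an FFA with Vehicle and of NTP with that FFA use the same FFA libraries, so that a chance value of those libraries enters both with opposite sign. Averaged over both FFAs, NTP raised Ppargc1b by 1.08 (standard error 0.14, adjusted p = 1.11e-05), Pprc1 by 0.62 (adjusted p = 1.01e-07), Esrra by 0.77 (adjusted p = 3.76e-07) and Polrmt by 0.63 (adjusted p = 1.81e-06) on the log2 scale. That is 4 of 10 members, against 11.3% of all genes. Without PA+NTP replicate 2 the call of Pprc1 was lost (0.57), and without PA replicate 2 or LA replicate 1 that of Polrmt (0.56 in both). With the GC trend removed these averages were 0.65 for Ppargc1b (adjusted p = 0.002), 0.29 for Pprc1, 0.14 for Esrra and 0.05 for Polrmt, and Ppargc1b alone was called, 1 of 10 members against 4.9% of all genes.

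Cells with NTP and an FFA were also set against Vehicle, to ask how far the regulators stood from untreated cells. No member was called in PA+NTP, where 2.85% of all genes were, or in LA+NTP, where 0.0922% were, by edgeR. DESeq2 also called no member, and 2.55% and 0.0355% of all genes. At an unadjusted p under 0.05, 2 members were higher and 0 lower in PA+NTP, and 1 was higher and 1 lower in LA+NTP, where 24.7% and 14.3% of all genes had such a p. Pprc1 had an adjusted p of 0.0332 in PA+NTP, with a log2 fold change of 0.25, under the fold threshold. Ppargc1b stood at 0.44 in PA+NTP (standard error 0.19, adjusted p = 0.158) and at 0.10 in LA+NTP (standard error 0.19, adjusted p = 0.864). The largest value in LA+NTP was that of Tfb1m, at -0.44 (standard error 0.13, adjusted p = 0.155). Whether the effect of NTP differed between LA and PA was tested as an interaction, which called 0 members and 0% of all genes by edgeR, and 0 members and 0.0355% of all genes by DESeq2. At an unadjusted p under 0.05, where 7.3% of all genes lay, there were 2 members, Polrmt with 0.37 (standard error 0.14, adjusted p = 0.639) and Ppargc1a with -0.46 (standard error 0.19, adjusted p = 0.678). For Ppargc1b the difference was 0.18 (standard error 0.28, adjusted p = 0.928).

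The directions of the members followed the GC content of their transcripts. It was 61.8% in Esrra, 60.9% in Polrmt, 57.8% in Ppargc1b and 55.9% in Pprc1, the members that were lower with an FFA. It was 41.4% in Gabpa, 42.5% in Tfb2m and 44.9% in Tfam, the members that were higher. Nrf1, at 51.1%, was near the median of 50.1% over all genes with a value. Ppargc1a, at 41.7%, and Tfb1m, at 45.9%, did not follow the trend in every comparison. The 141 genes in the same 1% step of GC content as Esrra had median log2 fold changes of -0.45 and -0.53 for PA and LA, and of 0.48 and 0.64 for NTP under each. In the step of Ppargc1b, with 540 genes, the medians were -0.34, -0.37, 0.35 and 0.48, and in the step of Gabpa, with 401 genes, 0.35, 0.38, -0.40 and -0.48. Thus the 1.06 by which Ppargc1b was lowered with LA exceeded the median of its step, and the values of Gabpa were close to theirs. With a smooth GC trend removed from each library, 0 members were called with PA by edgeR, against 8.56% of all genes called in either direction. At an unadjusted p under 0.05 there was 1 with PA, Tfam, against 41.4% of all genes. In the other 3 comparisons 1 was called, Ppargc1b, with LA (against 2.38% of all genes called lower), PA+NTP (4.03% called higher) and LA+NTP (3.72% called higher). Since the trend ran with the treatment groups, its removal may also take out a response to treatment. A lost call therefore does not tell a bias of the libraries from such a response.

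**Figure D4:**
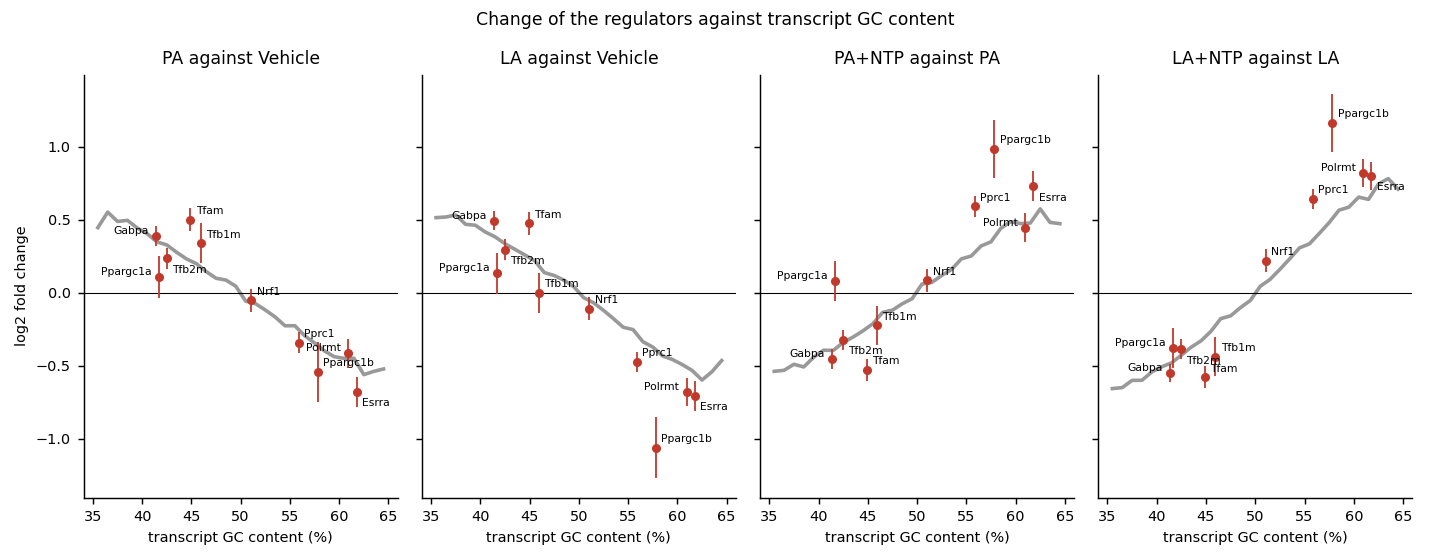
Log2 fold change of each regulator (red points, bars are standard errors) against the GC content of its transcript in percent, in 4 comparisons. The grey line joins the medians of all tested genes in steps of 1% GC that hold at least 20 genes. Most regulators lie near the line, and Ppargc1b lies beyond it with LA (-1.06) and with NTP (0.99 and 1.17).

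Genes whose pattern was most like that of Ppargc1b were found by the root mean square difference of centred log2 counts, scaled to library size, over the 10 libraries, among 11106 genes that averaged an FPKM of 1 or more. Smallest were those of Pilra (0.0947), Dnase1 (0.140), Sipa1l3 (0.140), Ptpn23 (0.146) and Rexo1 (0.148), where the median over all genes was 0.568. Of the other members, Esrra (0.244), Pprc1 (0.274) and Polrmt (0.285) were nearer to Ppargc1b than that median, as was Nrf1 (0.485). Ppargc1a (0.600), Tfb1m (0.657), Tfb2m (0.694), Gabpa (0.770) and Tfam (0.784) were farther. Pilra and Dnase1 have a GC content of 48.4% and 49.2%, below that of Ppargc1b, and the other 3 of 58.3% to 60.0%.

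The factors that dock with PGC-1 or pair with GABPA were taken as a list of 19 genes, all tested. With PA 2 were called lower (against 8.92% of all genes) and 0 higher, and with LA 3 lower (7.11%) and 0 higher. With PA+NTP 2 were called higher (8.74%) and with LA+NTP 4 higher (11.7%), with 0 lower in both. The fatty acid receptor Ppard (PPARδ), the thyroid hormone receptor Thra, and Hcfc1, the host cell factor that binds PRC and GABP, were in this set. Ppard fell with LA (log2 fold change -0.67, adjusted p = 5.22e-05) and rose with NTP under PA (0.76, adjusted p = 9.43e-06) and LA (0.83, adjusted p = 2.77e-06). Thra fell with PA (-0.74, adjusted p = 0.00494) and LA (-0.79, adjusted p = 0.00323) and rose with LA+NTP (0.85, adjusted p = 0.000997). Hcfc1 fell with LA (-0.59, adjusted p = 1.29e-05) and rose with NTP under PA (0.62, adjusted p = 5.79e-06) and LA (0.70, adjusted p = 1.11e-06). Hnf4a, which keeps hepatocyte identity, fell with PA (-0.73, adjusted p = 1.4e-06), from an FPKM of 67.1 and 66.6 in Vehicle to 37.2 and 41.6. It was 49.2 and 45.5 in PA+NTP, 0.20 higher than PA on the log2 scale (adjusted p = 0.0172, not called). Srebf1, the regulator of lipid synthesis, rose with LA+NTP (0.72, adjusted p = 1.23e-05). With the GC trend removed, none of the 19 was called in these 4 comparisons. Hnf4a with PA, at -0.56 (adjusted p = 2.39e-05), then missed the fold threshold narrowly. Hcfc1 kept an adjusted p under 0.05 in all 4, at -0.34, -0.38, 0.41 and 0.43 (0.00149, 0.00167, 0.000535 and 0.000332).

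Of 18 upstream regulators, Crtc2, a coactivator of CREB that drives PGC-1α in the fasted liver, changed most. Its FPKM was 26.1 and 26.2 in Vehicle, 14.4 and 15.6 in PA, 13.5 and 15.2 in LA, 29.9 and 30.9 in PA+NTP, and 30.2 and 31.3 in LA+NTP. The FFA libraries lay below Vehicle and the NTP libraries above it. Crtc2 fell with PA (log2 fold change -0.76, adjusted p = 3.72e-06) and LA (-0.82, adjusted p = 3.3e-06) and rose with NTP under PA (0.96, adjusted p = 6.81e-07) and LA (1.06, adjusted p = 1.4e-07). The 2 calls with NTP held with the GC trend removed (0.62 in both, adjusted p = 6.91e-05 and 6.24e-05), and those with PA and LA were lost on the fold threshold (-0.45 and -0.48, adjusted p = 0.000601 and 0.00093). Sirt1, the deacetylase that activates PGC-1α, rose with PA (0.61, adjusted p = 3.77e-05), and Creb1 fell with LA+NTP (-0.61, adjusted p = 5.26e-06), and neither was called with the GC trend removed (0.31 and -0.07, adjusted p = 0.00737 and 0.503). These were the calls of the list, 1 of 18 higher and 1 lower with PA (against 6% and 8.92% of all genes), 1 lower with LA (7.11%), 1 higher with PA+NTP (8.74%), and 1 higher and 1 lower with LA+NTP (11.7% and 7.57%). The 7 AMPK subunit genes were in this list because the study also followed that kinase. None of the 7 was called in the 4 comparisons by edgeR or by DESeq2. At an unadjusted p under 0.05, 2 were higher and 2 lower with PA, 2 higher and 1 lower with LA, and 2 higher and 2 lower with NTP under each FFA. Of all genes, 52% with PA, 48.7% with LA, 51.2% with PA+NTP and 56.8% with LA+NTP had such a p in either direction. The largest log2 fold change among them was 0.48 in size, in Prkab1. Transcript levels do not bear on the phosphorylation of the kinase.

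Of 20 other genes for mitochondrial DNA replication and transcription, 2 were called higher with PA (against 6% of all genes) and 2 with LA (3.53%), 2 lower with PA+NTP (5.11%) and 2 with LA+NTP (7.57%), and none in the other direction. Tefm, the elongation factor of POLRMT, had an FPKM of 6.89 and 7.50 in Vehicle, 10.7 and 10.2 in PA, 11.4 and 10.2 in LA, 6.43 and 7.53 in PA+NTP, and 5.65 and 6.31 in LA+NTP. It rose with LA (log2 fold change 0.63, adjusted p = 0.00137) and fell with NTP under PA (-0.63, adjusted p = 0.00118) and LA (-0.89, adjusted p = 3.76e-05), the last still called with the GC trend removed (-0.60, adjusted p = 0.0022). In the fit over all libraries, Tefm under LA thus moved opposite to Polrmt, whose product it serves and whose transcript is richer in GC. With the GC trend removed, Tefm with LA was at 0.40 (adjusted p = 0.0395) and no longer called. Polrmt was then at -0.16 with LA and 0.15 with LA+NTP (adjusted p = 0.328 and 0.295), neither called. The opposite movement was therefore not clear in that fit. Mterf2, of the termination factor family, rose with PA (0.87, adjusted p = 0.00472) and LA (0.71, adjusted p = 0.0163) and fell with PA+NTP (-0.67, adjusted p = 0.0172). Ssbp1, the mitochondrial single-strand DNA binding protein, rose with PA (0.64, adjusted p = 1.99e-05) and fell with LA+NTP (-0.61, adjusted p = 1.39e-05). The calls of Mterf2 were lost with the GC trend removed, at 0.58 with PA, 0.41 with LA and -0.36 with PA+NTP (adjusted p = 0.0612, 0.229 and 0.232). So were those of Ssbp1, at 0.27 with PA and -0.13 with LA+NTP (adjusted p = 0.0199 and 0.241). Of the 20, 3 were then called higher with PA (against 3.23% of all genes), 0 with LA, and 0 and 2 lower with NTP under PA and LA (the last against 2.15%). The median of the 20 was 0.33 and 0.18 for PA and LA, and -0.19 and -0.26 for NTP under each. With the GC trend removed the medians kept their signs, at 0.21 and 0.17 for PA and LA, and -0.11 and -0.14 for NTP under each.

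Among 20 tested genes known as targets of this pathway, 2 were called higher and 1 lower with PA (against 6% and 8.92% of all genes), and 0 and 1 with LA (3.53% and 7.11%). With NTP 1 was called higher and 1 lower under PA (8.74% and 5.11%), and likewise under LA (11.7% and 7.57%). Apart from the 2 higher with PA, these counts were under the share of all genes. Ucp2, an uncoupling protein of the inner membrane, had an FPKM of 1.12 and 0.93 in Vehicle, 0.38 and 0.33 in PA, 0.39 and 0.56 in LA, 0.81 and 0.93 in PA+NTP, and 1.16 and 1.56 in LA+NTP. It fell with PA (log2 fold change -1.51, adjusted p = 0.000377) and LA (-1.08, adjusted p = 0.00307) and rose with NTP under PA (1.26, adjusted p = 0.00135) and LA (1.52, adjusted p = 9.54e-05). All 4 calls held with the GC trend removed, at -1.29, -0.84, 1.03 and 1.20 (adjusted p = 0.00259, 0.0337, 0.0113 and 0.00215). The level of Ucp2 was low in every library, with an FPKM of 0.33 to 1.56. The complex I subunit Ndufs1 fell with NTP under PA (-0.63, adjusted p = 2.42e-06) and LA (-0.59, adjusted p = 1.81e-06). The citric acid cycle enzyme Idh3a rose with PA (0.59, adjusted p = 0.000112). So did Sod2, the superoxide dismutase of the matrix (0.79, adjusted p = 9.3e-07). These calls were lost on the fold threshold with the GC trend removed, each with an adjusted p still under 0.05. Ndufs1 was then at -0.40 and -0.31 (adjusted p = 0.000274 and 0.00141), Idh3a at 0.38 (adjusted p = 0.00535) and Sod2 at 0.47 (adjusted p = 0.000204). The median of the 20 targets lay between -0.20 and 0.10 in the 4 comparisons.

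**Figure D5:**
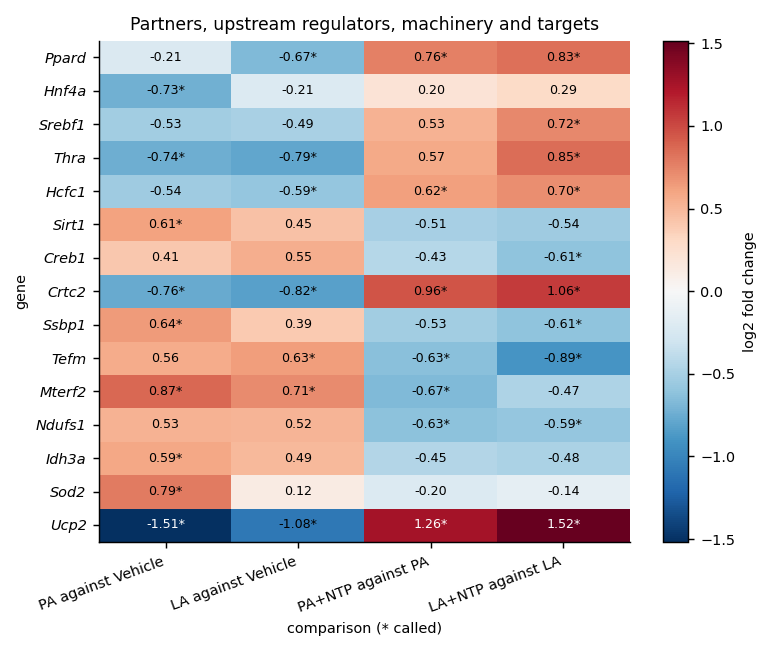
Log2 fold changes (numbers and colour) of the 15 genes called in at least 1 of the 4 comparisons among the listed partners, upstream regulators, mitochondrial DNA machinery and targets. Stars mark called values. Ucp2 has the widest range, from -1.51 to 1.52, and Crtc2 is called in all 4 columns.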

How the data were processed

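RNA sequencing of 10 libraries was analysed from the tables the authors deposited, 1 per library. Per the labels, the authors used HISAT, Bowtie2 and RSEM with the mm10 build, and no versions are given in the sources used here. The expected counts deposited by the authors are RSEM's estimates per gene, not normalized between libraries, and 71.7% to 76.7% of them were whole numbers within 1e-06. The deposited FPKM values, called RPKM in the methods, were divided by the authors by gene length and library total. A gene missing from a table, which lists values of at least 0.01, was taken as 0. The deposited length per gene is RSEM's. Gene IDs were matched to the RefSeq table of GRCm38.p6, 17998 of 18055 by ID and 11 by accession, and 0 genes of the mitochondrial genome were listed. GC content was taken from GENCODE transcripts for 92.3% of genes.

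Groups and replicate numbers follow the labels, since the numbers in the file names differ from them, and the NTP dose is from the study's description of its RNA sequencing experiment. Replicates differed by more than counting error alone (chi-square per gene between them, 3.81 to 16.4). This cannot tell separate samples from repeats of the same RNA. Expected counts were rounded and fitted in edgeR 4.0.16 (R 4.3.3) with TMM (factors 0.977 to 1.04), filterByExpr (14097 genes kept, 3958 dropped) and the quasi-likelihood test over all 10 libraries with 5 groups as 1 factor. The common coefficient of biological variation was 0.0682. Standard errors were derived from the F statistic, and 95% intervals are 1.96 of them to each side. This is an approximation, narrower than an interval from the F test would be. p-values were adjusted by Benjamini-Hochberg over all genes tested. The GC trend was a loess curve (span 0.4) per library, entered as offsets. The pipeline was tested on simulated data. Alternatives were library-size scaling, DESeq2 1.42.0, no fold threshold, no filter, limma 3.58.1 on log2(FPKM + 1) and log2(FPKM + 0.1), GC and length trends, a replicate block, only the groups compared, and leaving out each library. The study's own method, NOISeq, was not run. Leaving out the shallowest and the deepest library together was added after the values were seen.

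All 10 members were named in every comparison, genes of the lists where called in at least 1 of the 4 main comparisons, and the 5 genes most like Ppargc1b by their root mean square difference. The members, lists, motifs and markers were chosen with earlier results of these data known.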

Additional observations from a re-analysis of the deposited data

Results flagged for a closer look

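Ppargc1a was the only member whose libraries with NTP lay on opposite sides under the 2 FFAs. Under PA both libraries with NTP (FPKM 1.42 and 1.58) were above both without it (1.35 and 1.38), and under LA both with NTP (1.00 and 1.17) were below both without it (1.44 and 1.32). In counts scaled to library size (CPM), which the test uses, the libraries under PA overlapped (8.977 and 10.255 with NTP, 8.995 and 9.170 without), so that the separation under PA holds in FPKM alone. The difference between the NTP effects, that under LA minus that under PA, was -0.46 on the log2 scale (standard error 0.19). edgeR's interaction test gave an unadjusted p of 0.0319 and an adjusted p of 0.678, so the difference did not pass. With the GC trend removed it was -0.37 (adjusted p = 0.996), and the NTP effects then had the same sign, at 0.44 under PA and 0.07 under LA, so that the opposite directions were gone. Without PA+NTP replicate 2, the NTP effect under PA was -0.03, so that its direction under PA rests on that library.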

How the results depend on the processing

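Of 345 refits of the 15 called member values (23 alternatives each), 308 kept the direction and the call, 37 lost the call and 0 changed direction. The alternative without a fold threshold is the main fit under a looser rule, so it could not lose a call. Many refits left out a library outside the groups compared, which moves a value little. Ppargc1b lost its calls only with limma on log2(FPKM + 1), a scale that shrinks the change of a gene near an FPKM of 1 (-0.50 with LA, 0.58 with PA+NTP, 0.55 with LA+NTP and 0.56 for the average, each with an adjusted p under 0.05). The number of members called was 1 and 3 for PA and LA against Vehicle, 3 and 4 for NTP under PA and LA, 4 for the average effect of NTP, and 0 for PA+NTP and LA+NTP against Vehicle and for the interaction. Without a fold threshold these became 7, 7, 7, 10 and 9, and 1 for PA+NTP against Vehicle. Of all 14097 genes, 3310 were then higher and 3101 lower for PA, and 2938 and 2886 for LA. The NTP effect gave 3060 and 3246 under PA, 3646 and 3611 under LA, and 4247 and 4195 when averaged. PA+NTP against Vehicle gave 634 and 791. A large part of all genes thus passed this looser rule, and not the members alone. With the GC trend removed the numbers of members called became 0, 1, 1, 1 and 1, and the same with a replicate block and the GC trend removed together. Without the shallowest and the deepest library, chosen after seeing the data, the number with PA was 0. When single libraries were dropped, the counts were 0 to 1 with PA (0 without PA replicate 1), 2 to 3 for LA, 2 to 3 for NTP under PA, 4 to 5 for NTP under LA, 3 to 4 for the average, and 0 to 0 for the others. The library then alone in its group is taken to vary as other groups do.

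The replicate numbers gave little sign of a pairing of the samples. Deviations of same-numbered libraries correlated at -0.0692 to 0.127 over 10 pairs of groups, with 7 positive and 2 above 0.1. The numbers in the file names were not checked in this way, so a pairing is not settled. With the replicate block alone, the members called were again 1, 3, 3 and 4 in number in the first 4 comparisons.

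Directions changed only in values that were not called. With the GC trend removed, and with the replicate block added to it, Ppargc1a became -0.24 and -0.24 (PA), -0.23 and -0.23 (LA), and 0.071 and 0.069 (NTP under LA). For Tfb2m the values were -0.078 and -0.0785 (PA), -0.038 and -0.0369 (LA), 0.0085 and 0.0091 (NTP under PA), and 0.0275 and 0.0266 (NTP under LA). For Polrmt they were 0.0519 and 0.048 (PA), and -0.0563 and -0.0521 (NTP under PA). Ppargc1a with PA+NTP was -0.033 to 0.18 with libraries left out. Tfb1m with LA, at -0.0006, became 0.0364 with the length trend removed, 0.0025 with the replicate block, 0.0012 with a block by file number, 0.001 with only the groups compared, 0.0029 without the shallowest and deepest library, and -0.018 to 0.0149 with libraries left out. The cause of these changes was not tested. Depth limits Ppargc1b most, with 35 to 304 expected counts per library.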

Other observations

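The ratio of Tfb2m to Tfb1m, which encode related proteins with transcripts of similar GC content, differed between the FFAs. In FPKM it was 4.06 and 4.19 in Vehicle, 3.55 and 4.07 in PA, and 3.69 and 3.49 in PA+NTP. It was 5.16 and 4.97 in LA, and 5.53 and 5.03 in LA+NTP, so that the 4 LA libraries lay above all others. This ratio was looked at after the values had been seen, and its difference between the FFAs was not tested. The counts of Tfb2m are uncertain, since 35.9% of its 31-base sequences also occur in other transcripts. Tfb1m rests on 126 to 361 expected counts per library.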
